A study of Mus musculus with 8 samples.

Results

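The acute-phase genes of mouse liver described here are the serum amyloid A genes Saa1, Saa2, Saa3 and Saa4, the orosomucoid genes Orm1, Orm2 and Orm3, the lipocalin Lcn2, haptoglobin (Hp) and Itih4. They were taken by symbol from the deposited table, where 10 of 52110 named rows carry these symbols. All 10 lay above the filter on low values, a mean of 1 FPKM over the 8 libraries, which 11274 genes passed. FPKM counts sequenced fragments relative to transcript length and to the size of the library. The set was drawn up with results of the same comparison in view, so the differences of these 10 genes are described without a test.

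Bulk liver RNA was sequenced from wild-type mice that had all been fed CDAHFD, a high-fat diet of defined amino acids that lacks choline and produces steatohepatitis, a fatty and inflamed liver. Both groups had been injected intravenously with extracellular vesicles from the blood of human volunteers. Donors had undergone remote limb ischemic conditioning, in which the blood supply of a limb is briefly stopped and released (group RIC_hEV, 4 libraries), or a sham treatment (group ctr_hEV, 4 libraries). The labels used here give no strain, sex, age, dose or time, and do not say whether each library is 1 mouse, so SDs and p-values measure the spread between libraries, which may be technical. Livers on a standard diet or without vesicles were not analysed here.

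The acute-phase response is the change in proteins secreted by hepatocytes during inflammation. Interleukin-6 acts on these cells through the transcription factor STAT3, and interleukin-1 and tumour necrosis factor through C/EBP factors and NF-kB. Positive acute-phase proteins such as serum amyloid A increase in plasma, and negative ones such as albumin decrease.

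The SAA genes lie within 42316 bases of chromosome 7 and the ORM genes within 21319 bases of chromosome 4 (GENCODE M21, mm10). Saa1 (46740497 to 46742980, minus strand) and Saa2 (46751790 to 46754313, plus strand) point away from each other, with Saa3 (46711998 to 46715700) and Saa4 (46727998 to 46732603) on the minus strand beside them. On chromosome 4, Orm1 (63344560 to 63348163), Orm3 (63356162 to 63359511) and Orm2 (63362449 to 63365878) follow each other on the plus strand. Lcn2 is on chromosome 2 (32384633 to 32388252, minus strand), Hp on chromosome 8 (109575128 to 109579172, minus strand) and Itih4 on chromosome 14 (30886476 to 30902353, plus strand). All 10 are annotated as protein-coding.

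Neighbouring copies resemble each other closely, which bears on how surely reads can be assigned. The coding sequences of Saa1 and Saa2 were 95.1% identical over 369 bases, whereas Saa1 and Saa3 were 78.2% and Saa1 and Saa4 68.8% identical. Among the orosomucoids identity was 89.9% between Orm1 and Orm2, 86.5% between Orm1 and Orm3 and 88.4% between Orm2 and Orm3. Of the 31-base stretches in its transcripts, Saa1 shared 46.0% with Saa2, Orm1 shared 27.5% and Orm2 34.1% with other genes, and Lcn2 shared none with any other annotated gene. The values of Saa1, Saa2, Orm1 and Orm2 are therefore uncertain to the extent that the authors' counting could split or drop shared reads, and RefSeq lists Saa2 as an older name of Saa1 and Saa1 as an older name of Saa2.

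The promoters of the members that are compared below are shown because they hold a feature the choice of genes did not use. The motif letters, however, were chosen with these promoters in view, so the share of promoters with a match is only a description. RefSeq (GRCm38.p6) gave promoters, from 250 bases before the annotated start to 50 after it, for 8 of the 10 genes. In 7 of these 8 the letters TTGCNNAA of the C/EBP motif occurred on either strand, against 10.8% of the 32851 promoters searched. The 7 are not independent sequences, because the promoters of Saa1 and Saa2 were 96.0% identical and those of Orm2 and Orm3 89.2%. The 6 below are written 5′ to 3′ on the gene's own strand, with the match in capitals. They cover chr7:46742931-46743230 (minus strand) for Saa1, chr7:46751583-46751882 (plus) for Saa2, chr7:46715627-46715926 (minus) for Saa3, chr4:63362199-63362498 (plus) for Orm2, chr4:63355908-63356207 (plus) for Orm3 and chr2:32387690-32387989 (minus) for Lcn2.
Saa1: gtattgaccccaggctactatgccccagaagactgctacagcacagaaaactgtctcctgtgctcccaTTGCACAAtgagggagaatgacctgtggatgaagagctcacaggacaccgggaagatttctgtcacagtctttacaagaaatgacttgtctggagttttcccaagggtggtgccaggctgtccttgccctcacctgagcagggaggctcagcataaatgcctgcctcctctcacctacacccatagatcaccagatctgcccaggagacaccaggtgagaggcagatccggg
Saa2: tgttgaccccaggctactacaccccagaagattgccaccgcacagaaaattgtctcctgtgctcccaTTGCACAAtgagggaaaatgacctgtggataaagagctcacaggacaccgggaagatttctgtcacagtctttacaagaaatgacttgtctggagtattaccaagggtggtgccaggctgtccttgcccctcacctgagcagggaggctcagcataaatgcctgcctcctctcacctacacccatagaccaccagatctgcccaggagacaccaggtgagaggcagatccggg
Saa3: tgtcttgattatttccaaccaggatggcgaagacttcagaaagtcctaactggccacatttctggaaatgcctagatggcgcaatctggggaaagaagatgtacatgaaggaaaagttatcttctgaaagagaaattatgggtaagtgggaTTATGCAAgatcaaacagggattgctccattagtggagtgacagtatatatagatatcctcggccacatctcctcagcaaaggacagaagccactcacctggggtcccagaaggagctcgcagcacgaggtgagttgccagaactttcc
Orm2: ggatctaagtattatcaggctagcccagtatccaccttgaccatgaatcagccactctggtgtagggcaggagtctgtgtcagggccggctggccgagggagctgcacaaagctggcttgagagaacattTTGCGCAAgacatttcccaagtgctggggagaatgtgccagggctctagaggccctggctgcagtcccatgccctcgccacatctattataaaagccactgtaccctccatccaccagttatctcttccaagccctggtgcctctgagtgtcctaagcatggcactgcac
Orm3: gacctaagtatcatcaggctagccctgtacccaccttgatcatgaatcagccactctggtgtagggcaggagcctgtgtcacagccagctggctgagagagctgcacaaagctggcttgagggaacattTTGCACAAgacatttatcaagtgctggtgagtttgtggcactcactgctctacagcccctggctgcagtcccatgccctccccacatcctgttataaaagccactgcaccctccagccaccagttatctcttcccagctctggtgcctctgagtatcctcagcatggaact
Lcn2: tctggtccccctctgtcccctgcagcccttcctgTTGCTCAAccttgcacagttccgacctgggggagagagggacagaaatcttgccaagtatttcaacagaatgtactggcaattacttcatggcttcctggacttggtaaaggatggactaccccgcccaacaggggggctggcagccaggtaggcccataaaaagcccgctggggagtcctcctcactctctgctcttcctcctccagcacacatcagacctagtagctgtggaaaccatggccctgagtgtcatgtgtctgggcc

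Saa1 and Saa2 carried the same letters, TTGCACAA, beginning at positions -182 and -183 relative to the start. Orm2 had TTGCGCAA and Orm3 TTGCACAA, at -120 and -121. In Lcn2 the match TTGCTCAA began at -216, and in Saa3 the match on the opposite strand, TTATGCAA as printed, at -99. Saa4 had 2 matches, at -245 and -52, and Itih4 none. The STAT3 motif, TTCNNNGAA, occurred in Itih4 alone, at -51, and in 8.30% of all promoters. The NF-kB letters GGGANNNNCC (20.7% of all promoters) and the HNF1 consensus (0.06%) occurred in none of the 8. These are matches of letters and do not show binding.

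**Figure D1:**
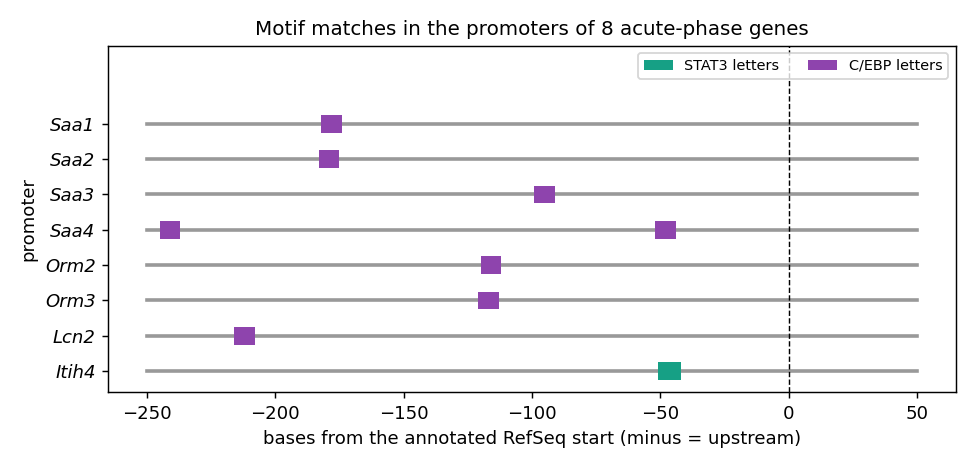
Positions of C/EBP letters (purple) and STAT3 letters (green) in the promoters of 8 acute-phase genes, each drawn as a grey line on an axis of bases from the RefSeq start (dashed). Of the 8 promoters 7 hold C/EBP letters, at like positions in Saa1 and Saa2 and in Orm2 and Orm3.

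Hepatocyte markers were high in every library, and the libraries differed in ways the groups do not describe. Total FPKM was 389616 to 430326 per library. The depth was estimated at 19300000 to 28800000 fragments, taking the most common low value of FPKM times exon length as 1 fragment. The summed level of 10 hepatocyte markers was 27858 to 43426 FPKM in ctr_hEV and 35459 to 41194 in RIC_hEV. Alb was the largest part of this sum, with means of 22984 ± 4608 FPKM in ctr_hEV and 22810 ± 2431 in RIC_hEV. Counts of the single markers are given below with the negative acute-phase genes. The leading principal component, which held 44.4% of the variance, set ctr_hEV 1 (-36.1) and ctr_hEV 3 (-23.3) apart from the other ctr_hEV (-2.36 and 16.3) and from RIC_hEV (4.75 to 16.3). Several results are therefore also given without 1 or both of ctr_hEV 1 and 3.

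Over all 8 libraries, Lcn2 had the largest difference between the groups among the 10 genes, whereas without ctr_hEV 1 and 3 that of Orm3 was larger (relative log2 difference -0.90, against -0.63 for Lcn2). Its product binds bacterial iron carriers, and is made by injured hepatocytes and stored in neutrophil granules. Lcn2 measured 274, 197, 337 and 176 FPKM in ctr_hEV 1 to 4 and 108, 122, 112 and 127 FPKM in RIC_hEV 1 to 4. Every RIC_hEV library lay below every ctr_hEV library, and the ctr_hEV libraries were spread over a wider range. The means were 246 ± 74.0 and 117 ± 8.72 FPKM (SD, n = 4 per group), a ratio of 0.477.

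The median log2 difference of all tested genes was -0.11, and differences are given relative to it. For Lcn2 the log2 difference in log2(FPKM + 1), RIC_hEV minus ctr_hEV, was -0.91 (SE 0.19, for the fitted difference of -1.02). Only 0.257% of tested genes had a lower relative value, a description of a gene chosen with this difference known. Without ctr_hEV 1 and 3, which held the highest Lcn2 values, the relative log2 difference was -0.63.

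Neutrophil markers lay lower in RIC_hEV, as Lcn2 did. Of tested genes, all above the filter on low values, 73.0% were lower in RIC_hEV as fitted. All 16 neutrophil markers were lower there by mean FPKM, but only 5 of the 16 passed that filter. Their summed level was 41.1, 36.9, 83.1 and 17.4 FPKM in ctr_hEV 1 to 4 and 10, 20.01, 14.1 and 10.4 in RIC_hEV 1 to 4. Its largest parts were S100a9 (means of 18.3 FPKM in ctr_hEV and 4.69 in RIC_hEV) and S100a8 (11.8 and 3.61 FPKM). Lcn2 itself is not in that list. The defining marker Ly6g was listed at 0 in 5 libraries, among them all of RIC_hEV. Library ctr_hEV 4 had a smaller neutrophil sum (17.4) than RIC_hEV 2 (20.01) while its Lcn2 level was higher (176 and 122 FPKM). The cholangiocyte markers summed to 2.94 to 17.3 FPKM in ctr_hEV and 2.93 to 3.25 in RIC_hEV. The macrophage markers summed to 492 to 909 and 466 to 653 FPKM, and the stellate cell markers to 43.9 to 169 and 46.6 to 66.8 FPKM. By mean FPKM, all 6 cholangiocyte markers, all 8 stellate cell markers and 10 of 14 macrophage markers were lower in RIC_hEV as well. The upper ends of the sums in ctr_hEV were those of ctr_hEV 1 and 3. In ctr_hEV 2 and 4 the cholangiocyte sums were 3.85 and 2.94 FPKM and the macrophage sums 572 and 492 FPKM. The stellate cell sums there were 43.9 and 44.2 FPKM, below every RIC_hEV library. The part of these cells in the Lcn2 difference was not tested, and in bulk tissue fewer cells of a type and less RNA per cell cannot be told apart.

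Of the serum amyloid A genes, Saa2 and Saa1 were at lower mean levels in RIC_hEV, with some overlap, whereas Saa3 and Saa4 had similar means. SAA1 and SAA2 are the inducible plasma forms carried on high-density lipoprotein. Saa2 measured 15.6, 27.4, 28.5 and 20.97 FPKM in ctr_hEV 1 to 4 and 16.8, 15.7, 14.2 and 13.7 in RIC_hEV 1 to 4. Apart from ctr_hEV 1, every ctr_hEV library lay above all RIC_hEV libraries. The means were 23.1 ± 6.01 and 15.1 ± 1.43 FPKM, and the relative log2 difference was -0.44 (SE 0.17).

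Saa1 followed Saa2 from library to library. It measured 36.3, 61.1, 62.7 and 50.5 FPKM in ctr_hEV 1 to 4 and 46.5, 37.4, 45.2 and 34.7 in RIC_hEV 1 to 4. Again 3 of 4 ctr_hEV libraries lay above every RIC_hEV library, whereas ctr_hEV 1 lay within the RIC_hEV range. The relative log2 difference was -0.22 (SE 0.18), with means of 52.6 ± 12.2 and 40.9 ± 5.75 FPKM. Both differences were larger without ctr_hEV 1, at -0.43 for Saa1 and -0.65 for Saa2. Without ctr_hEV 1 and 3 they were -0.41 and -0.61. The ratio of Saa2 to Saa1 was 0.437 ± 0.0180 in ctr_hEV and 0.373 ± 0.0450 in RIC_hEV, and the 2 sets of ratios overlapped.

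Saa3 is also made by macrophages and fat cells, and Saa4 is the constitutive form of hepatocytes. Saa3 measured 4.17, 13.3, 10.5 and 13.2 FPKM in ctr_hEV 1 to 4 and 8.90, 10.7, 11.5 and 8.83 in RIC_hEV 1 to 4. Saa4 measured 30.1, 64.2, 52.5 and 92.1 FPKM in ctr_hEV 1 to 4 and 57.0, 59.4, 55.3 and 59.6 in RIC_hEV 1 to 4. In both genes ctr_hEV 1 was the lowest library of all, and the RIC_hEV values lay inside the range of ctr_hEV. The relative log2 differences were 0.17 (SE 0.28) for Saa3 and 0.17 (SE 0.26) for Saa4, and turned to -0.35 and -0.38 without ctr_hEV 1 and 3. The 7 fat cell markers summed to 6.67 to 13.2 FPKM in ctr_hEV and 7.95 to 10.4 in RIC_hEV. Of these, Fabp4 (4.80 to 11.7 FPKM) and Lipe (1.56 to 2.12 FPKM) were above 0 in every library, and Adipoq and Lep were listed at 0 in all. The macrophage markers summed to 909, 572, 778 and 492 FPKM in ctr_hEV 1 to 4 and 466, 503, 555 and 653 in RIC_hEV 1 to 4. The part of fat cells or macrophages in the Saa3 level was not tested.

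The orosomucoids, plasma carriers of drugs and lipids also called alpha-1-acid glycoproteins, differed from each other. Orm2 measured 183, 216, 386 and 148 FPKM in ctr_hEV 1 to 4 and 161, 136, 116 and 108 in RIC_hEV 1 to 4. The groups overlapped in that ctr_hEV 4 lay below RIC_hEV 1, and ctr_hEV 3 was far above all others. The means were 234 ± 105 and 130 ± 23.6 FPKM, with a relative log2 difference of -0.65 (SE 0.26). That difference was -0.39 without ctr_hEV 3 and -0.44 without ctr_hEV 1 and 3.

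Orm1, the most abundant orosomucoid, measured 739, 925, 1136 and 830 FPKM in ctr_hEV 1 to 4 and 910, 790, 874 and 721 in RIC_hEV 1 to 4. The groups overlapped widely (907 ± 170 and 824 ± 84.8 FPKM), and the relative log2 difference was -0.02 (SE 0.14), or -0.35 with quantile normalization. The ratio of Orm2 to Orm1 is taken within a library and does not depend on its scaling. It was 0.248, 0.234, 0.340 and 0.179 in ctr_hEV 1 to 4 and 0.177, 0.172, 0.133 and 0.1496 in RIC_hEV 1 to 4. All 4 RIC_hEV ratios were below every ctr_hEV ratio, by a narrow margin for ctr_hEV 4 and RIC_hEV 1. This ratio was formed after the values were seen, from genes chosen with this contrast in view. The share of other gene pairs whose ratios do not overlap was not counted. Of the other ratios formed between members, that of Lcn2 to Hp did not overlap and the rest did. Orm1 and Orm2 share 27.5% of their 31-base stretches, so their ratio also depends on how shared reads were assigned.

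Orm3 was the least abundant member, at 4.06, 13.9, 4.76 and 9.52 FPKM in ctr_hEV 1 to 4 and at 5.82, 6.94, 4.80 and 5.08 in RIC_hEV 1 to 4. It rested on an estimated 76 to 310 fragments per library. Its high values were those of ctr_hEV 2 and ctr_hEV 4, the reverse of Lcn2, and the relative log2 difference of -0.21 (SE 0.30) turned to 0.09 without ctr_hEV 2. Without ctr_hEV 1 and 3 it was -0.90.

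Hp and Itih4 had nearly equal means in both groups. Haptoglobin binds haemoglobin released from red cells, and ITIH4 is a secreted relative of the heavy chains of inter-alpha-trypsin inhibitor. Hp measured 2928, 3142, 3606 and 3422 FPKM in ctr_hEV 1 to 4 and 3221, 2709, 3296 and 3843 in RIC_hEV 1 to 4. The means were 3274 ± 300 and 3267 ± 464 FPKM, and both the lowest and the highest library were RIC_hEV. The relative log2 difference was 0.10 (SE 0.13), or -0.04 with quantile normalization.

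Itih4 measured 228, 192, 295 and 233 FPKM in ctr_hEV 1 to 4 and 338, 201.3, 189 and 195 in RIC_hEV 1 to 4. RIC_hEV 1 was the highest of all libraries, and the other RIC_hEV libraries lay near the lowest ctr_hEV library. The relative log2 difference was 0.04 (SE 0.20) and turned to -0.17 without RIC_hEV 1.

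**Figure D2:**
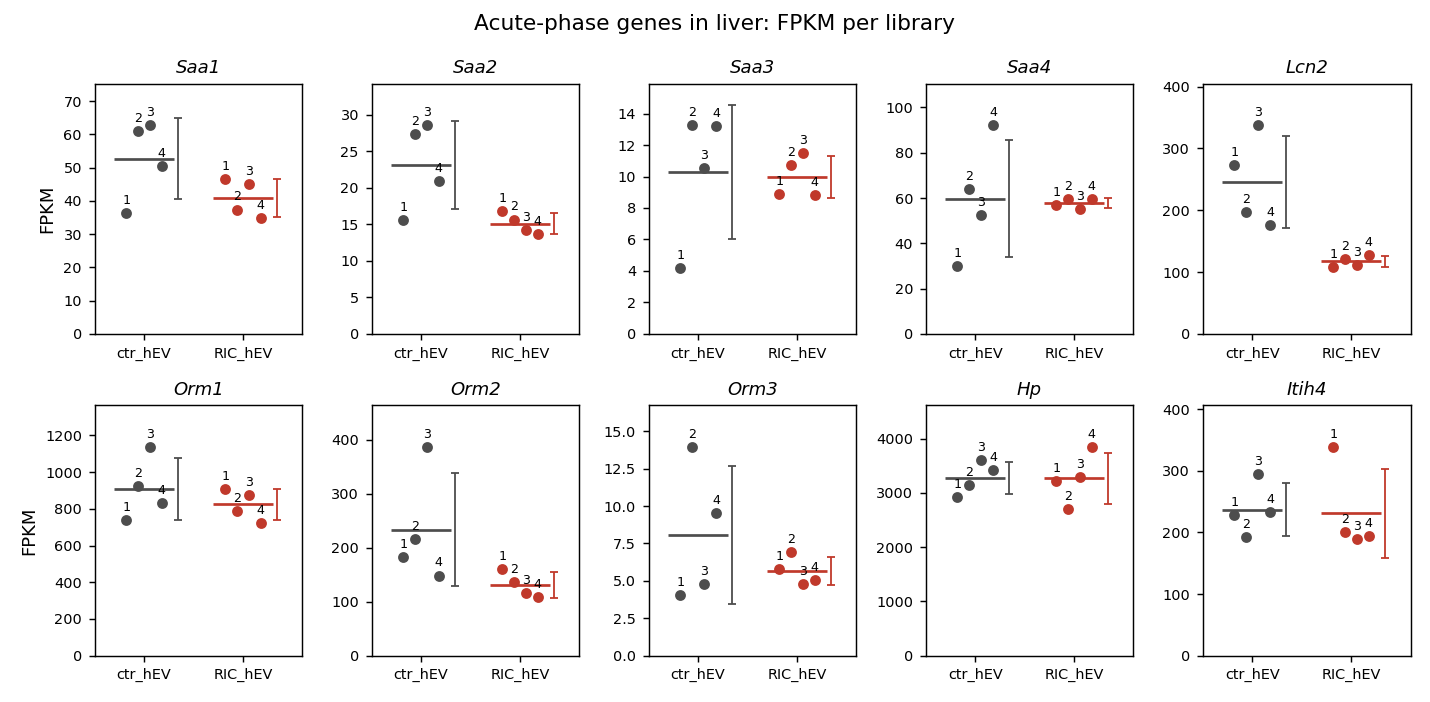
FPKM of the 10 acute-phase genes in each library, on linear axes that start at 0. Points are libraries numbered by replicate (grey ctr_hEV, red RIC_hEV), horizontal lines are group means and the bars beside them are ± SD (n = 4). Lcn2 alone has all RIC_hEV points (108 to 127 FPKM) below all ctr_hEV points (176 to 337 FPKM).

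The counts of calls among the 10 genes stand here beside those of all tested genes. In the limma fit with Benjamini-Hochberg adjustment, 0 of the 10 passed an adjusted p of 0.05, where 0.0355% of all tested genes did (4 of 11274, 0.0177% in each direction). At an unadjusted p under 0.05 there were 3 of 10, Lcn2, Orm2 and Saa2, all lower in RIC_hEV, against 11.3% of tested genes in that direction. The groups did not overlap in 1 of 10, Lcn2, where 4.56% of tested genes were lower in RIC_hEV without overlap. As the genes were chosen with this contrast in view, nothing is read from these counts. As fitted, 8 of 10 were lower, where 73.0% of tested genes were. Relative to the median gene, 2 of 10 (Lcn2 and Orm2) lay below -0.5, as did 1.35% of tested genes, and 0 lay above 0.5, where 2.24% did. The median relative log2 difference of the 10 was -0.11, with 6 below the median gene, and 90% of all tested genes lay between -0.30 and 0.36. Without ctr_hEV 4, Lcn2 was among 176 genes that passed. The excess of lower genes depends on the scaling: at an unadjusted p under 0.05 there were 297 higher and 1279 lower genes, but 918 higher and 438 lower with per-library median centring, and 605 higher and 607 lower with quantile normalization.

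**Figure D3:**
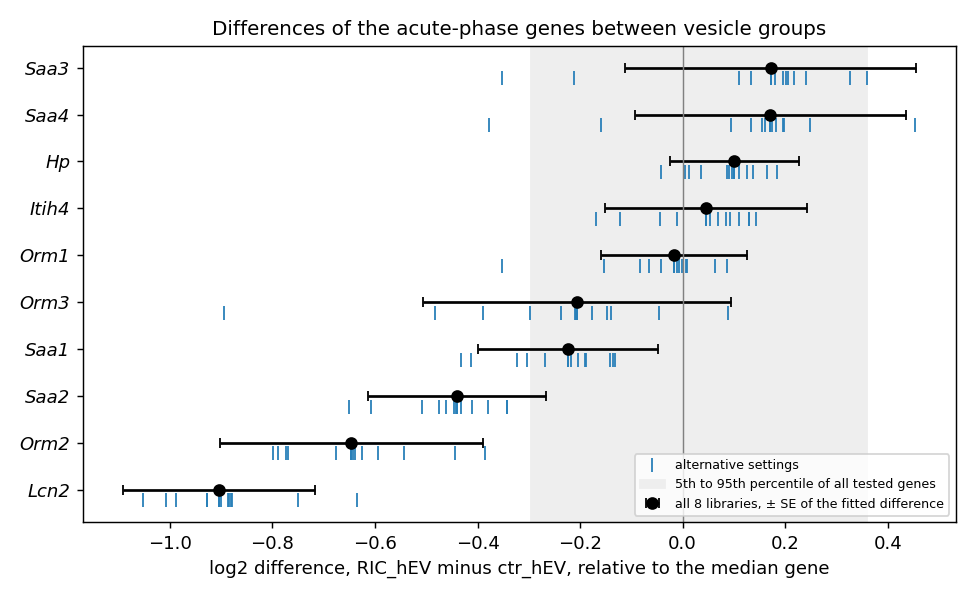
Log2 difference of each acute-phase gene, RIC_hEV minus ctr_hEV, relative to the median gene (black points, all 8 libraries, ± SE of the fitted difference). Blue ticks are the 15 alternative settings and the grey band spans the 5th to the 95th percentile of all tested genes. Lcn2 runs from -1.05 to -0.63 over the settings, whereas Saa3, Saa4, Orm1, Orm3, Hp and Itih4 have ticks on both sides of 0.

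Levels of different genes can be set side by side per length, as far as the unstated gene lengths hold. On the FPKM scale the order in ctr_hEV was Hp, Orm1, Lcn2, Itih4, Orm2, Saa4, Saa1, Saa2, Saa3 and Orm3. Neighbours in this order that did not differ beyond their spread were Lcn2, Itih4 and Orm2 (246, 237 and 234 FPKM), Saa4 and Saa1 (59.7 and 52.6 FPKM), and Saa3 and Orm3 (10.3 and 8.07 FPKM). In RIC_hEV, Lcn2 took the fifth place (117 ± 8.72 FPKM), behind Itih4 (231 ± 71.8 FPKM) and Orm2 (130 ± 23.6 FPKM). There Lcn2 and Orm2 did not differ beyond their spread, whereas every Itih4 value lay above every Lcn2 value. The places of Lcn2, Saa1, Saa2 and Saa3 depend on the length used. For Lcn2 the annotated exons cover 2623 bases and the coding transcript 915, for Saa1 2478 and 609, for Saa2 2518 and 652, and for Saa3 2606 and 555. All 10 genes together took 1.24% ± 0.155 of the FPKM of a ctr_hEV library and 1.11% ± 0.125 of a RIC_hEV library, of which Hp alone was 65.0% ± 3.15 and 69.3% ± 4.23.

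The spread between libraries was wide in ctr_hEV and narrow in RIC_hEV for most members. A wider spread in ctr_hEV was not confined to them. On the leading principal component of all tested genes, ctr_hEV ran from -36.1 to 16.3 and RIC_hEV from 4.75 to 16.3. The share of all tested genes with a wider spread in ctr_hEV was not counted. The coefficient of variation of Saa4 was 43.2% in ctr_hEV and 3.56% in RIC_hEV, and that of Lcn2 was 30.1% and 7.43%. Hp (9.15% and 14.2%) and Itih4 (18.03% and 31.1%) were the exceptions. Within groups, Orm3 varied more than 98.5% of the 200 genes nearest to it in level, Saa3 more than 97.0% and Saa4 more than 95%, while Hp varied more than 44.5%.

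Some members varied together within groups. After subtraction of the group means, which removes the contrast the genes were chosen on, Saa1 and Saa2 had a Pearson r of 0.90 over the 8 libraries (Spearman rho 0.93). Leaving out the 2 libraries farthest from the median of Saa1 gave 0.69. Saa1 and Orm1, on different chromosomes, had an r of 0.90 (rho 0.90, and 0.81 without 2 libraries). Saa4 and Orm3 had an r of 0.72 (rho 0.90, and 0.93 without 2 libraries). Saa3 belonged to no single set: its r was 0.89 with Saa4, 0.75 with Saa1, 0.72 with Orm3 and 0.71 with Saa2. Without 2 libraries, ctr_hEV 1 among them in each case, these were 0.69, -0.09, 0.29 and 0.19.

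Lcn2 followed neither Saa1 nor Saa2. Its r was -0.14 with Saa1 (rho -0.19, and 0.34 without 2 libraries), 0.02 with Saa2 and -0.65 with Saa4 (rho -0.76, and -0.63 without 2 libraries). With Orm3 it was -0.77 (rho -0.83, and -0.82 without 2 libraries). With Orm2 it was 0.65 (rho 0.31), but -0.53 without ctr_hEV 3 and 4, so it rested on those libraries. These are descriptions of 45 gene pairs in 8 libraries that share their scaling, and Saa1 and Saa2 share sequence. For members spread more widely in ctr_hEV, r rests more on its 4 libraries than on RIC_hEV. With the leading principal component, before subtraction of group means, r was -0.86 for Lcn2 and -0.62 for Orm2. It was 0.78 for Saa4, 0.66 for Saa3, 0.40 for Orm3, and -0.275 (Saa2) to 0.03 (Hp) for the others. The part of that component in the correlations between members was not tested.

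**Figure D4:**
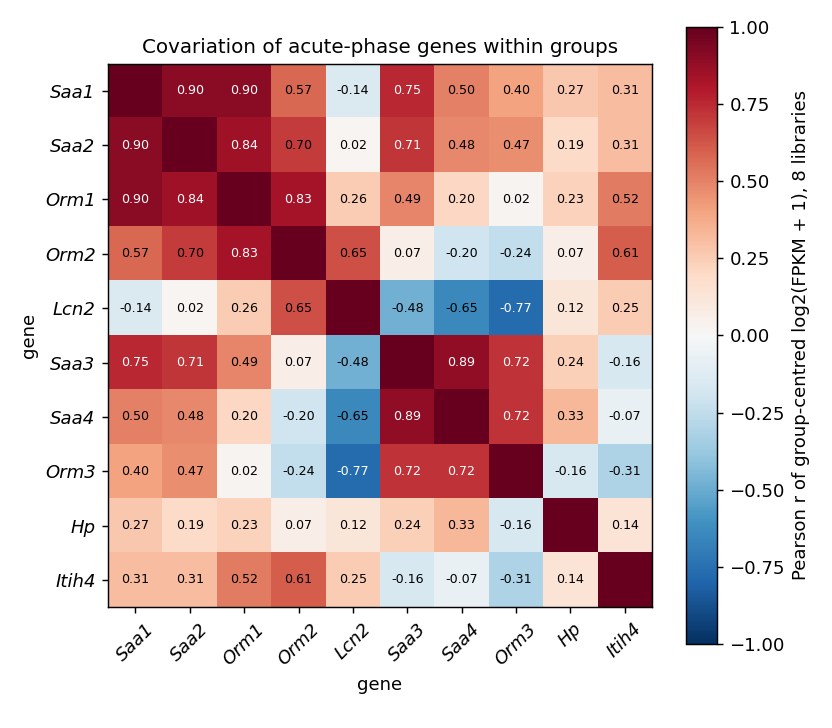
Pearson r between acute-phase genes of log2(FPKM + 1) after subtraction of group means, over 8 libraries (red positive, blue negative). Saa1, Saa2 and Orm1 have an r of 0.845 to 0.90 with each other, Saa3 is positive both with Saa1 and Saa2 (0.75 and 0.71) and with Saa4 and Orm3 (0.89 and 0.72), and Lcn2 is negative with Saa3, Saa4 and Orm3 (-0.77 to -0.48).

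Genes whose within-group pattern was most like that of 4 members were ranked among 5505 genes with a mean of at least 5 FPKM. For Lcn2 they were Eif3g (r = 0.98), Il13ra1 (0.97), Itih2 (0.97) and Dtnbp1 (0.96). For Saa3 they were the clotting factor gene F9 (0.98), Cfhr2 (0.98), Ugt2b1 (0.97) and Uqcrb (0.96). Orm2 was most like Ghdc, Cfl2, Fgl1 and Akt1s1 (0.92 to 0.88), and Saa1 most like Mir703, Sypl, D230025D16Rik and Hspb8 (0.91 to 0.87). Il13ra1, a receptor chain for interleukin-13, averaged 10.5 ± 2.47 FPKM in ctr_hEV and 7.37 ± 0.779 in RIC_hEV, and Itih2 averaged 427 ± 74.4 and 365 ± 15.1 FPKM. The ranking is a description over 8 libraries that share their scaling. For Lcn2 (SD 74.0 FPKM in ctr_hEV, 8.72 in RIC_hEV) and Eif3g (7.13 and 0.582) most of the spread lay in ctr_hEV. Their r therefore rests mainly on the 4 ctr_hEV libraries.

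Other positive acute-phase genes lay on both sides of the median gene. Of 22 tested, 10 lay above and 12 below the median gene (median relative log2 difference -0.02, or -0.20 with quantile normalization), and 0 passed in the limma fit. At an unadjusted p under 0.05, 4 were lower and 0 higher, against 11.3% and 2.63% of tested genes. The haem carrier Hpx had group means of 5123 ± 434 (ctr_hEV) and 5091 ± 187 FPKM (RIC_hEV), the complement protein C3 of 1517 ± 132 and 1486 ± 195, and the fibrinogen chain Fgg of 741 ± 114 and 670 ± 101. The iron hormone Hamp was at 1201 ± 231 and 795 ± 483 FPKM, with RIC_hEV libraries from 388 to 1496. The groups did not overlap in 2 genes, both lower in RIC_hEV (4.56% of tested genes) and named after their values were seen. Steap4, a metalloreductase, was at 106 ± 24.2 and 64.3 ± 12.4 FPKM, and Cd14, a co-receptor for endotoxin, at 22.9 ± 8.98 and 10.2 ± 0.852 FPKM (limma adjusted p = 0.332 for each).

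All 10 negative acute-phase genes lay above the median gene, where 50% of tested genes do, and 9 of 10 were higher as fitted, where 73.0% of tested genes were lower. Their median relative log2 difference was 0.26, and 0 of 10 passed in the limma fit, with 2 at an unadjusted p under 0.05, both higher, against 2.63% of tested genes. Alb averaged 22984 ± 4608 FPKM in ctr_hEV against 22810 ± 2431 in RIC_hEV, and the iron carrier Trf 4028 ± 169 and 3896 ± 267. Apoa1, the main protein of high-density lipoprotein, was at 5211 ± 236 and 6134 ± 325 FPKM, and Ahsg at 2214 ± 158 and 2432 ± 141. Apoa1 (limma adjusted p = 0.354) and the retinol carrier Rbp4 (1729 ± 265 and 2267 ± 81.2 FPKM, limma adjusted p = 0.332, named after its values were seen) did not overlap between groups, both higher in RIC_hEV (1.31% of tested genes). Hepatocyte markers moved with this list, all 10 lying above the median gene, and Alb, Ttr and Apoa1 are in both. The median relative log2 difference of these 10 markers was 0.41, and 0 passed in the limma fit. At an unadjusted p under 0.05, 6 of the 10 were higher and 0 lower, against 2.63% and 11.3% of tested genes. Without ctr_hEV 1 and 3 the median of the negative acute-phase list was 0.10, and with quantile normalization 0.09. The median of the hepatocyte markers, whose sums were lowest in ctr_hEV 1 and 3, was not computed without these libraries.

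Genes that induce the acute phase were mixed. Of 30 cytokine, receptor, kinase and transcription factor genes 23 were tested, 11 above and 12 below the median gene (median -0.04), and 0 passed in the limma fit. Il6, the main inducer, was listed at 0 in 5 libraries and reached at most 0.0804 FPKM. Cebpb averaged 108 ± 17.0 FPKM in ctr_hEV and 143 ± 7.84 in RIC_hEV, with every RIC_hEV library (133 to 150) above every ctr_hEV library (93.4 to 124), as in 1.31% of tested genes (limma adjusted p = 0.332). The other most abundant genes of the list were Hnf4a (106 ± 8.68 and 130 ± 14.9 FPKM), Cebpa (107 ± 5.07 and 96.4 ± 12.6) and the NF-kB inhibitor Nfkbia (39.5 ± 5.18 and 37.7 ± 4.52).

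At an unadjusted p under 0.05, 5 of 23 genes of this list were lower and 2 higher in RIC_hEV, against 11.3% and 2.63% of tested genes. The 5, Il1a, Il1b, Jak2, Nfkbiz and Nr3c1, did not overlap between groups (4.56% of tested genes in that direction) and are named after their values were seen. Tnf, below the filter and also named after its values were seen, was at 0.944 to 1.61 FPKM in ctr_hEV and 0.511 to 0.823 in RIC_hEV. The other genes of the list below the filter overlapped. Il1b was at 2.54 ± 0.363 and 1.48 ± 0.290 FPKM (limma adjusted p = 0.332), and Nfkbiz, an NF-kB cofactor, at 5.48 ± 0.856 and 3.71 ± 0.418 (limma adjusted p = 0.332). Stat3 itself was at 9.18 ± 2.203 and 8.02 ± 0.902 FPKM, and its feedback inhibitor Socs3 at 6.61 ± 3.10 and 5.69 ± 0.333 (both named after their values were seen).

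Receptors and partners of the members lay lower on average, but the median of the list depended on ctr_hEV 1. Of 17 genes 13 were tested, 9 of them below the median gene, with a median relative log2 difference of -0.29 that was -0.065 without ctr_hEV 1, -0.02 without ctr_hEV 1 and 3, and -0.41 with quantile normalization. Of these 0 passed in the limma fit, and 4 of 13 were lower and 1 higher at an unadjusted p under 0.05, against 11.3% and 2.63% of tested genes. The lipid receptor Cd36 was at 122 ± 30.7 and 87.0 ± 16.8 FPKM in ctr_hEV and RIC_hEV, and Hmox1, which breaks down haem, at 110 ± 22.8 and 82.8 ± 12.4. The haemoglobin genes Hbb-bs (103 ± 75.3 and 55.1 ± 2.05 FPKM) and Hba-a1 (75.9 ± 61.3 and 37.1 ± 4.14 FPKM) varied widely in ctr_hEV, where red cell transcripts summed to 605 FPKM in ctr_hEV 1 and 83.4 in ctr_hEV 2. Tlr2 (6.69 ± 0.925 and 4.30 ± 0.610 FPKM) and Fpr2 (2.59 ± 0.307 and 1.72 ± 0.391 FPKM), receptors that can bind serum amyloid A, did not overlap between groups (4.56% of tested genes were lower without overlap) and are named after their values were seen (limma adjusted p = 0.332 for each).

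The relatives of Itih4 lay on both sides of the median gene. Of 5 tested genes, 2 lay above and 3 below the median gene, and 0 passed in the limma fit, with 0 at an unadjusted p under 0.05. Itih3 also counts among the other positive acute-phase genes. Ambp, which encodes the light chain bikunin, was at 991 ± 71.0 and 1028 ± 115 FPKM, Itih3 at 183 ± 32.4 and 159 ± 24.3, and Itih1 at 93.0 ± 9.35 and 100.3 ± 16.5.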

How the data were processed

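RNA was extracted with Trizol, per the labels' protocols, and FastQC 0.11.9, Trimmomatic 0.38, HISAT2 2.2.1, HTSeq 0.13.5 and mm10 are named in the submitters' processing notes. The deposited values are FPKM computed by the authors, 1 column per library; the sources used here do not name the FPKM program, gene lengths or strand setting. Of 55335 rows, 3225 without a gene name (0.176% to 0.207% of FPKM) were left out, and for 80 repeated symbols the name went to the row of higher mean.

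Values were transformed to log2(FPKM + 1), which understates the change of low genes, and genes with a mean of at least 1 FPKM were fitted with limma 3.58.1 (R 4.3.3; empirical Bayes with a trend, two-sided, Benjamini-Hochberg over all tested genes, threshold 0.05). The script was tested on simulated data. The SE belongs to the difference as fitted, before the median gene was subtracted. Depth was estimated from GENCODE M21 exon lengths, but only 17.2% to 18.5% of low values lay within 0.02 of a whole fragment, so no count model was used.

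The members and all lists were chosen with earlier results of these data known, and the motif letters with the promoters in view. Named in the text are every member, per list the 4 genes of highest mean FPKM and any that passed, and per likeness ranking the top 4; others are said to be named after their values were seen.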

Additional observations from a re-analysis of the deposited data

Results flagged for a closer look

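Of 20 groups of 4 libraries checked, 1 held a library far from the others, and chance alone marks about 1 group in 20. Itih4 was at 338 FPKM in RIC_hEV 1, against 189 to 201.3 FPKM in the other RIC_hEV libraries. The gap to the nearest library was 0.918 of the range of the group, above Dixon's 95% critical value for 4 samples.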

How the results depend on the processing

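Under 15 alternatives the relative log2 differences kept their sign for Lcn2 (-1.05 to -0.63), Orm2 (-0.80 to -0.39), Saa2 (-0.65 to -0.34) and Saa1 (-0.43 to -0.13). The other 6 members turned sign in at least 1. No member passed in any alternative except Lcn2 without ctr_hEV 4 (limma adjusted p = 0.0259, against 0.168 to 0.487 without another ctr_hEV library). The count of 4 genes passing was 2 with no filter, 8 without ctr_hEV 1 and 3 together, and 1 to 176 with 1 library left out (1 without RIC_hEV 3 or RIC_hEV 4, 2 without RIC_hEV 1 and 176 without ctr_hEV 4). With the replicate number as a block it was 3 and no call of a member changed. Same-numbered libraries correlated at -0.23 to 0.12, and 1 of 4 libraries correlated best with its own number. So few libraries cannot show whether those of the same number were paired. The median of the 10 members was -0.40 without ctr_hEV 1 and 3, and -0.32 to -0.02 with 1 library left out. With quantile normalization the medians of the other positive acute-phase genes and of the receptors and partners were -0.20 and -0.41. The latter was -0.0207 without ctr_hEV 1 and 3 and -0.36 to -0.0652 with 1 library left out. That of the inducing genes was -0.0906 to 0.0336 with 1 library left out. The cause of these shifts was not tested. Depth limits Orm3 most.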
